A study of Mus musculus with 12 samples.

Results

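The YAP pathway was followed through 10 genes across 12 RNA-seq libraries of HC11, an immortalised mouse mammary epithelial cell line that can form polarised, gland-like structures. The members were chosen by gene symbol: the secreted proteins encoded by Ccn1 and Ccn2, Ankrd1, the receptor gene Axl, Asap1, the junction and feedback genes Ajuba, Amotl2 and Lats2, the DNA-binding partner gene Tead1, and Yap1 itself. All 10 were found among the 57180 genes of the deposited table, and all 10 passed the filter of at least 1 TPM in at least 3 libraries, which 14426 genes passed. TPM, a transcript abundance, is a level scaled for gene length and library total. The cells carried a knockdown of Snail1, the protein of Snai1, or were controls (genotype WT, titled "scr"). They were sorted by flow cytometry, aggregated overnight in low serum with EGF and insulin, and collected at 36 h or 0 h of an in vitro migration assay, in a series on the part Snail1 plays in collective migration. There were 4 groups of 3 libraries, namely Snail1 knockdown at 36 h, control at 36 h, Snail1 knockdown at 0 h and control at 0 h. The libraries are numbered 1, 2 and 3, except in control at 36 h, where they are 1, 3 and 4, and values are listed in that order. The labels state neither the construct, nor whether a line was 1 clone, nor that replicates were grown separately, so a p-value here reflects library-to-library spread that may be technical.

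YAP is a transcriptional coactivator that cannot bind DNA alone. It and its close relative TAZ, encoded by Wwtr1, bind TEAD proteins at enhancers and promoters. In the Hippo pathway the MST kinases activate the LATS kinases, which phosphorylate YAP and TAZ and hold them in the cytoplasm. In mammary epithelium, loss of cell contacts, a stiff matrix and actin tension are known to bring YAP into the nucleus. Much of this control acts on the protein, so the RNA of target genes such as Ccn1, Ccn2 and Ankrd1 is commonly read in its place. Several members are pathway components and not only targets, and the list therefore mixes outputs with regulators.

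The start regions of the genes are shown first because TEAD proteins recognise the letters GGAATG, read as CATTCC on the other strand. RefSeq promoters of mouse build GRCm38.p6 (250 bases before to 50 after each annotated start) were available for 7 of the 10 members, namely Ccn1, Ankrd1, Axl, Yap1, Amotl2, Ajuba and Lats2. GGAATG stood on either strand in 7 of these 7, and in 16.6% of the 27025 genes with a promoter in that table. A gene was counted when any of its promoters held the letters. Lats2 had a further promoter without them (250 bases before the start at chr14:57734419-57734668, minus strand). The 250 bases before the start of Ccn1 (chr3:145649986-145650235, minus strand) and of Ankrd1 (chr19:36119845-36120094, minus strand) are given in full, because these standard YAP targets had opposite signs in the knockdown. Capitals mark GGAATG or CATTCC, and each sequence runs 5′ to 3′ on the strand of its gene.
Ccn1: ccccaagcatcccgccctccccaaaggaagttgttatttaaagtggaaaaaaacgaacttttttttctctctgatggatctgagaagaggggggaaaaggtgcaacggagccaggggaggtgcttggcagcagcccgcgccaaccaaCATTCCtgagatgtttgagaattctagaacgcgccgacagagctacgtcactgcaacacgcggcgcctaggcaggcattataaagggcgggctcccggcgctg
Ankrd1: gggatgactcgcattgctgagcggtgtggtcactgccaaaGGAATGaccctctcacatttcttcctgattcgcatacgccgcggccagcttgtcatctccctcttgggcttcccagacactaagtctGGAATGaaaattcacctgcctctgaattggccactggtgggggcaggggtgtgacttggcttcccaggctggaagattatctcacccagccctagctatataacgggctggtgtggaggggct
The single match of Ccn1 began 103 bases before the start, and the matches of Ankrd1 began 210 and 123 bases before it. A window of 30 bases around each match in the other members shows how the flanks differ, at chr7:25788949-25788978 for Axl, chr9:8004720-8004749 for Yap1, chr9:102717727-102717756 for Amotl2, chr14:54577830-54577859 and chr14:54577808-54577837 for Ajuba, and chr14:57746102-57746131 for Lats2. Amotl2 lies on the plus strand and the others on the minus strand.
Axl: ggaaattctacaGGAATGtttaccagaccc
Yap1: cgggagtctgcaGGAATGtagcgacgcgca
Amotl2: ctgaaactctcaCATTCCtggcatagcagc
Ajuba, farther match: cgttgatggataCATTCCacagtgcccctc
Ajuba, nearer match: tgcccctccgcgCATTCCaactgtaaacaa
Lats2: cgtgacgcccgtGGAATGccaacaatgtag
These matches began 233 bases before the start in Axl, 141 in Yap1, 65 in Amotl2, and 186 and 164 in Ajuba, while that of Lats2 began 5 bases into the transcript. Ajuba and Ankrd1 held 2 matches each, and 1.36% of all promoters held 2 or more. CAGGTG, the E-box that Snail1 can bind, stood on either strand in 2 of the 7 members, against 22.6% of genes. It began 111 bases before the start in Ankrd1, beside but not overlapping the nearer TEAD letters, and 134 bases before it in Lats2. The AP-1 letters TGANTCA were in 0 of 7 members and 8.97% of genes, TGANGTCA in 0 of 7 and 10% of genes, and the SRF CArG box in 0 of 7 and 1.81% of genes. A match describes letters in this window and shows no binding. These coordinates belong to GRCm38, while the submitters' processing notes name GRCm39 for the expression values.

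The libraries differed in ways that bear on the 0 h comparison. Snai1, the targeted gene, had 0.58, 0.44 and 0.20 TPM in knockdown libraries and 2.77, 2.69 and 3.92 TPM in control libraries at 36 h. Its 0 h values were 0.58, 0.79 and 0.48 TPM in knockdown libraries and 1.34, 2.51 and 1.69 TPM in control libraries. The groups did not overlap at either time, and limma called Snai1 lower at 36 h (log2 fold change -1.55, adjusted p = 0.0105) and at 0 h (-0.80, adjusted p = 0.0348). After median-of-ratios scaling, which sets the typical gene equal between libraries, the 0 h value of Snai1 was -0.51 and did not pass (adjusted p = 0.192). The 0 h call of Snai1 was kept in 11 of 22 alternatives and was lost without any control 0 h library (adjusted p 0.0590 to 0.122), knockdown 36 h library 2 (0.0525) or knockdown 0 h library 1 (0.0576). Without knockdown 0 h library 2 the 0 h value of Snai1 was -0.88 and passed (adjusted p = 0.0245). The 36 h call was kept in 17 of 22, and was lost without knockdown 36 h library 2 (0.0576) or 3 (0.0615) or control 36 h library 4 (0.0695). The exact two-sided permutation p was 0.1 at each time, the smallest that 3 against 3 libraries allow. Knockdown 0 h library 2 had 14.0% of its TPM in mitochondrially encoded genes, against 1.45 to 6.15% in the other libraries, and a median-of-ratios size factor of 0.507 against 0.902 to 1.22. Knockdown 0 h library 3 listed 27715 genes above 0, against 20932 to 23427. Control 36 h library 4 carries the word "mix" in its title, with no explanation in the labels. The summed level of 7 mammary epithelial markers was 19533 to 25521 TPM in knockdown and 15968 to 18874 TPM in control libraries at 36 h, and 3343 to 10329 TPM in knockdown and 10126 to 10342 TPM in control libraries at 0 h. The lowest sum was in knockdown 0 h library 2. Fibroblast markers summed to 7.82 to 13.5 TPM in knockdown and 11.9 to 23.2 TPM in control libraries at 36 h, and to 3.76 to 15.5 TPM in knockdown and 14.8 to 17.0 TPM in control libraries at 0 h. Of the 3 tested, Col1a1 was called lower at 0 h (-1.01, adjusted p = 0.0398), and after scaling at 36 h instead (-1.02, 0.0361). Immune markers summed to 2.14 to 2.42 TPM in knockdown and 3.16 to 3.85 TPM in control libraries at 36 h, and to 6.64 to 10.6 TPM in knockdown and 9.93 to 14.7 TPM in control libraries at 0 h. The 1 tested, Cd68, was lower at 36 h than at 0 h in knockdown (-1.46, adjusted p = 0.0158) and control cells (-1.68, 0.0142). Endothelial markers reached at most 7.16 TPM, and no marker was at 0 in all 12 libraries. Median-of-ratios scaling was therefore run beside TPM: the median log2 fold change of all tested genes at 0 h was -0.41 in TPM and 0.03 after scaling. The part of these library and marker differences in the results was not tested. Values without knockdown 0 h library 2 or 3 are given for several genes. Depth is unknown, since only TPM were used. In bulk RNA, fewer cells of a type and less RNA per cell cannot be told apart.

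Members were present at very different levels in TPM. Averaged over the 12 libraries, Ajuba (40.8 TPM), Axl (32.8 TPM) and Yap1 (27.2 TPM) were highest. Asap1 (10.8 TPM), Ccn1 (9.93 TPM), Lats2 (8.13 TPM), Ccn2 (7.71 TPM) and Amotl2 (7.09 TPM) formed a middle range, and neighbours in it lay closer than their spread over libraries. Tead1 (2.53 TPM) and Ankrd1 (1.37 TPM) were lowest. In TPM, Yap1 varied least, with a coefficient of variation of 12.8% over the 12 libraries, against 34.6 to 59.9% for the other 9 members. After median-of-ratios scaling, Yap1 was at 50.3 in knockdown 0 h library 2, against 19.4 to 30.4 in the other libraries, so its steadiness is stated for TPM only. Ccn1 varied most: its highest library was 19.5 times its lowest.

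**Figure D1:**
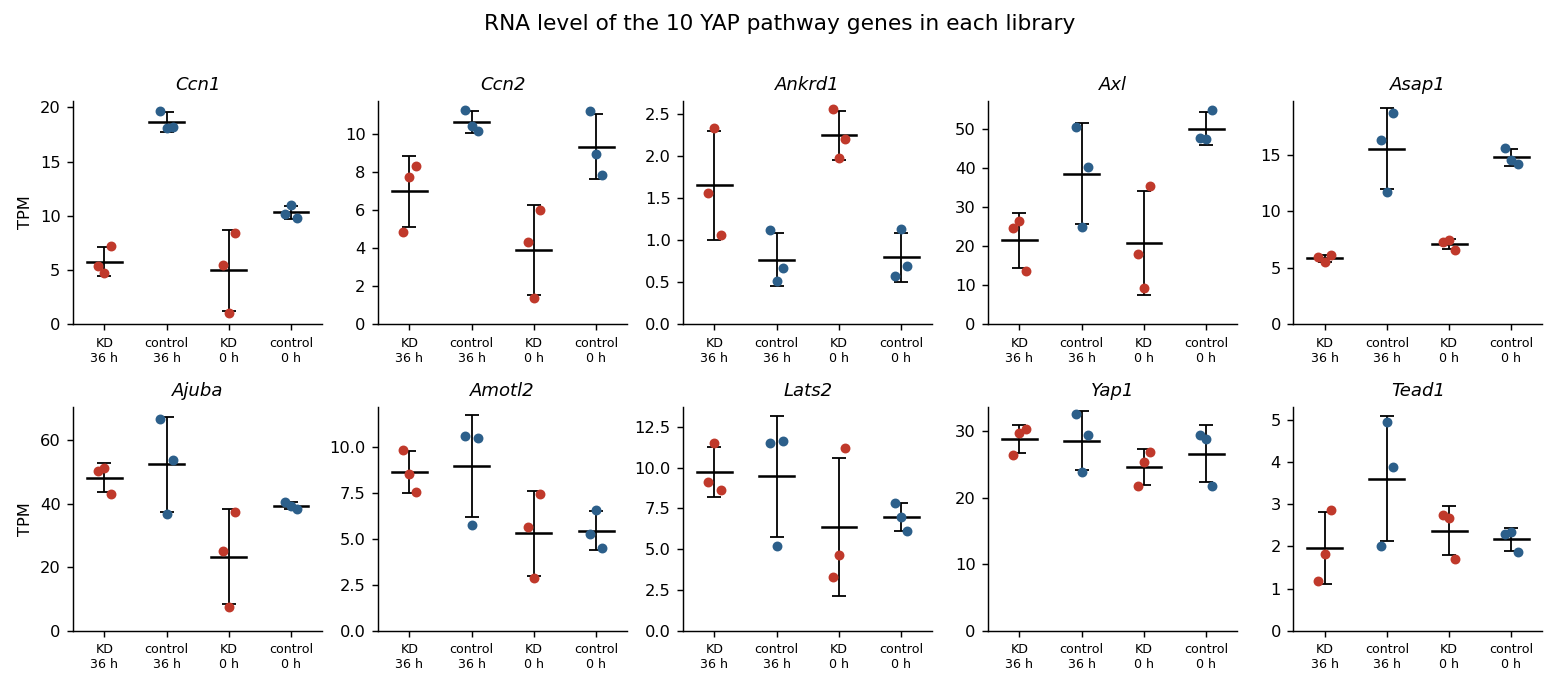
Level in TPM of each member in every library, with 1 panel per gene on its own scale starting at 0; points are libraries and bars the mean ± SD of 3 libraries. Asap1, Ccn1 and Ccn2 are lower in every knockdown library than in any control library of the same time, while Yap1 stays between 21.7 and 32.7 TPM in all 12.

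Of the 10 members, 4 differed between knockdown and control libraries at 0 h in limma, with Benjamini-Hochberg adjusted p under 0.05. Ccn2, Axl and Asap1 were lower and Ankrd1 was higher in the knockdown. At 36 h only Asap1 passed. Of all genes tested, 17.7% were called at 0 h (14.6% lower and 3.10% higher) and 2.53% at 36 h (1.64% lower and 0.894% higher). The median log2 fold change of the members was -0.61 at 0 h, where that of all genes was -0.41, and -0.33 at 36 h, where that of all genes was -0.09. After scaling it was -0.15 at 0 h, where 5 of the 10 were negative and all genes had 0.03, and -0.22 at 36 h, where all genes had 0.01. In TPM and without overlap between the libraries, 5 members were lower and 1 higher at 0 h, against 30.7% and 7.24% of all genes, and 3 were lower and 0 higher at 36 h, against 22.0% and 14.8%. The count at 0 h was unsteady: leaving out 1 library gave 0 members called (without control 0 h library 1) to 6 (without knockdown 0 h library 3), 1 without control 0 h library 2 or 3 or control 36 h library 4, and 2 without knockdown 36 h library 1 or 2, knockdown 0 h library 1 or control 36 h library 1. The 36 h count was 0 when any knockdown 36 h library was left out, likewise with control 36 h library 1 or 4 left out, and 2 without knockdown 0 h library 2 or 3. The number of all genes called moved in the same fits, over the ranges given in the last section. Counts from these fits therefore cannot be set against the shares above. After scaling, Ccn2 and Axl were lower and Ankrd1 higher at 0 h (10.2% of genes lower, 8.73% higher), and Ccn1 and Asap1 were lower at 36 h (3.44% lower, 2.50% higher).

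Asap1 encodes an Arf GTPase-activating protein of focal adhesions and invasive protrusions, and it fell at both times. At 36 h it had 5.93, 5.48 and 6.12 TPM in knockdown libraries and 16.3, 11.7 and 18.7 TPM in control libraries. Its 0 h levels were 7.26, 7.42 and 6.57 TPM in knockdown libraries and 15.6, 14.6 and 14.2 TPM in control libraries. The 6 knockdown libraries lay within 5.48 to 7.42 TPM and the groups did not overlap in TPM at either time. After scaling, knockdown 0 h library 2 had 14.6 for Asap1, above the 12.6 to 13.7 of the control 0 h libraries. Its mean in the knockdown was 37.5% of the control mean at 36 h (log2 fold change -1.25 ± 0.20 SE, adjusted p = 0.0150) and 47.9% at 0 h (-0.97 ± 0.20 SE, adjusted p = 0.0108). With scaling the value at 36 h was -1.15 (adjusted p = 0.0252), whereas that at 0 h was -0.49 and did not pass (adjusted p = 0.188). With scaling but without knockdown 0 h library 2, Asap1 was called lower at 0 h. Leaving out 1 library ended the 36 h call when it was any of the 3 knockdown 36 h libraries (adjusted p 0.0661 to 0.0784) or control 36 h library 1 (0.0845) or 4 (0.0916), and the 0 h call when it was control 0 h library 1 (0.0526). With only the 0 h groups fitted, the 0 h call was lost as well (adjusted p = 0.110).

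Ccn1 and Ccn2 encode secreted matricellular proteins that bind integrins and growth factors, and both are standard readouts of YAP. At 36 h Ccn1 had 5.33, 4.71 and 7.25 TPM in knockdown libraries and 19.7, 18.1 and 18.2 TPM in control libraries. At 0 h it had 5.43, 1.01 and 8.43 TPM in knockdown libraries and 10.2, 11.0 and 9.81 TPM in control libraries. Every knockdown library lay below every control library of its time, with knockdown 0 h library 2 far below the rest. The mean was 30.9% of control at 36 h (log2 fold change -1.56, 95% interval -2.52 to -0.59) and 48.0% at 0 h (-1.19, -2.16 to -0.22), and neither passed in limma over all 12 libraries (adjusted p = 0.0944 and 0.0801). The spread behind both tests was shared with the uneven knockdown libraries of 0 h. At 36 h the test passed with only the groups compared (adjusted p = 0.00310), without knockdown 0 h library 2 (0.000548) or 3 (0.0370), and with scaling (-1.45, adjusted p = 0.0325). Adjusted p over its 23 alternatives at 36 h ranged from 0.000397 to 0.459. At 0 h the log2 fold change was -0.54 without knockdown 0 h library 2 (adjusted p = 0.0853) and -1.65 without library 3 (0.0108).

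Ccn2 had 4.87, 7.73 and 8.34 TPM in knockdown libraries and 11.3, 10.4 and 10.2 TPM in control libraries at 36 h. Its 0 h values were 4.31, 1.36 and 6.02 TPM in knockdown libraries and 11.2, 8.97 and 7.83 TPM in control libraries. Both comparisons were free of overlap. Ccn2 fell at 0 h to 41.7% of the control mean (log2 fold change -1.20 ± 0.36 SE, adjusted p = 0.0401), and the scaled value was -0.82 (adjusted p = 0.0471). At 36 h the mean was 65.7% of control and the difference did not pass (-0.57, 95% interval -1.35 to 0.21, adjusted p = 0.502). The 0 h fold change was -0.75 without knockdown 0 h library 2 (adjusted p = 0.0443), and the call was lost in 15 of 23 alternatives, among them each one that left out a library other than those of knockdown at 0 h (adjusted p 0.0507 to 0.133).

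Ankrd1 encodes an ankyrin-repeat protein found in the nucleus and in the sarcomere of muscle, and its difference had the opposite sign to those of Ccn1 and Ccn2. At 36 h it had 1.56, 2.34 and 1.06 TPM in knockdown libraries and 1.12, 0.52 and 0.67 TPM in control libraries. In 0 h libraries it had 2.56, 1.98 and 2.21 TPM in knockdown libraries and 0.57, 1.13 and 0.69 TPM in control libraries. The 0 h groups were apart, whereas at 36 h knockdown library 3 lay below control library 1. Ankrd1 rose at 0 h to 282% of the control mean (log2 fold change 0.86 ± 0.24 SE, adjusted p = 0.0323), and the scaled value was 1.19 (adjusted p = 0.00995). Without knockdown 0 h library 2 the 0 h value was 0.92 and passed (adjusted p = 0.0270). At 36 h the value was 0.57 and did not pass (95% interval 0.04 to 1.10, adjusted p = 0.263). Levels this close to 1 TPM are low, the added pseudocount of 1 shrinks the fold change, and the 0 h call was lost in 9 of 22 alternatives, among them those lacking any control 0 h library (adjusted p 0.0530 to 0.116), knockdown 0 h library 1 (0.0619) or control 36 h library 4 (0.0508).

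Axl encodes the receptor tyrosine kinase for Gas6, which is tied to migration and invasion of epithelial cells. At 36 h it had 24.6, 26.6 and 13.5 TPM in knockdown libraries and 50.5, 24.8 and 40.2 TPM in control libraries. The 0 h values were 18.0, 9.26 and 35.4 TPM in knockdown libraries and 47.7, 47.5 and 54.9 TPM in control libraries. The groups were apart at 0 h, and at 36 h knockdown library 2 lay above control library 3. Axl fell at 0 h to 41.7% of the control mean (log2 fold change -1.41 ± 0.43 SE, adjusted p = 0.0444; scaled -0.92, 0.0437). At 36 h it did not pass (-0.81, 95% interval -1.75 to 0.14, adjusted p = 0.403). The 0 h call was lost in 15 of 23 alternatives, including those without knockdown 0 h library 2 (-0.95, adjusted p = 0.0850) or library 1 (-1.40, 0.0709). It was lost as well on leaving out any control 0 h library (adjusted p 0.101 to 0.123), knockdown 36 h library 1 (0.0633) or 2 (0.0592), and control 36 h library 1 (0.0541) or 4 (0.0655).

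**Figure D2:**
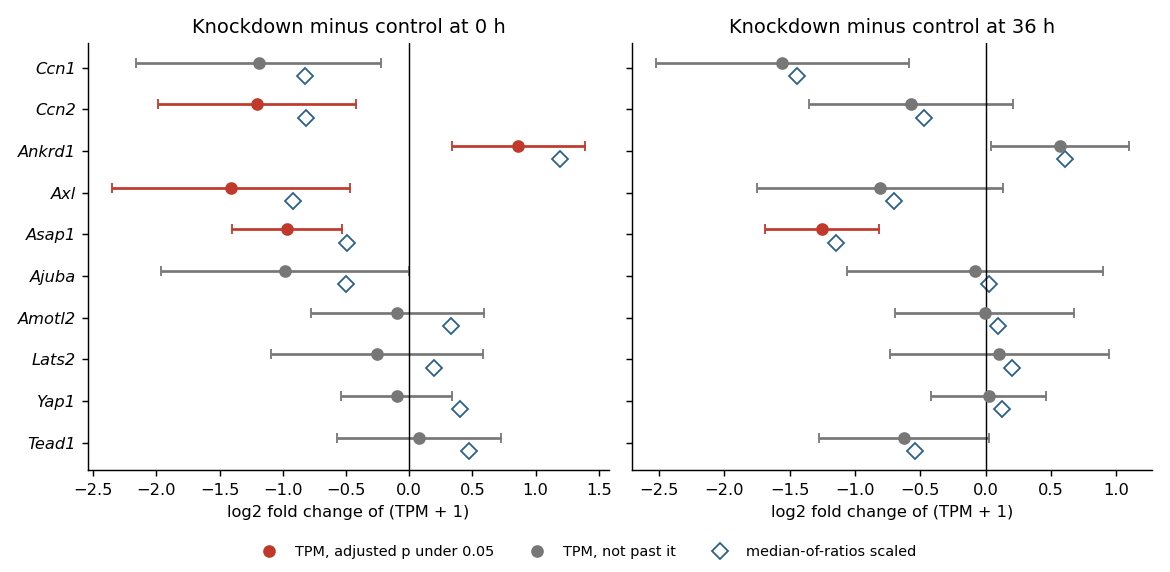
Log2 fold change of each member on the log2(TPM + 1) scale, knockdown minus control, at 0 h and 36 h; circles with 95% intervals are TPM, red where the adjusted p is under 0.05, and open diamonds are the values after median-of-ratios scaling. Scaling moves all members to the right at 0 h and hardly at 36 h, and Ankrd1 is the member farthest above 0 at both times.

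Ajuba encodes a LIM protein of adherens junctions that binds and inhibits LATS kinases. Its 36 h levels were 50.2, 51.2 and 42.9 TPM in knockdown libraries and 66.5, 36.6 and 53.9 TPM in control libraries. Its 0 h levels were 25.2, 7.46 and 37.4 TPM in knockdown libraries and 40.5, 39.4 and 38.2 TPM in control libraries. The 0 h groups overlapped after scaling but not in TPM, where knockdown library 3 was within 1 TPM of the lowest control library, and the difference did not pass (log2 fold change -0.98, adjusted p = 0.133). At 0 h without knockdown 0 h library 3 it was -1.44 and passed (adjusted p = 0.0198). At 36 h the groups overlapped (-0.08, adjusted p = 0.969; 0.02 after scaling).

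Amotl2, an angiomotin family member that binds YAP at junctions, and Lats2, the kinase that phosphorylates YAP and is itself induced by it, overlapped between groups at both times. Amotl2 had 9.86, 8.56 and 7.57 TPM in knockdown libraries and 10.6, 5.76 and 10.5 TPM in control libraries at 36 h, and 5.63, 2.86 and 7.42 TPM in knockdown libraries and 5.25, 6.59 and 4.52 TPM in control libraries at 0 h. Lats2 had 9.13, 11.5 and 8.62 TPM in knockdown libraries and 11.5, 5.19 and 11.7 TPM in control libraries at 36 h, and 3.30, 4.63 and 11.2 TPM in knockdown libraries and 7.81, 6.96 and 6.10 TPM in control libraries at 0 h. Knockdown 0 h library 3 was high and the other knockdown libraries of 0 h were low for Lats2. No log2 fold change of these genes passed: Amotl2 had -0.01 at 36 h (95% interval -0.69 to 0.68) and -0.09 at 0 h (-0.78 to 0.59), and Lats2 had 0.10 at 36 h (-0.73 to 0.94) and -0.25 at 0 h (-1.09 to 0.59). After scaling the 0 h values were 0.33 for Amotl2 and 0.19 for Lats2, and that of Amotl2 at 36 h was 0.09, so these directions are not set.

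Yap1 itself did not differ detectably. It had 26.5, 29.8 and 30.4 TPM in knockdown libraries and 32.7, 23.9 and 29.4 TPM in control libraries at 36 h. Before migration, at 0 h, it had 21.7, 25.5 and 27.0 TPM in knockdown libraries and 29.4, 28.8 and 21.8 TPM in control libraries. The groups overlapped at both times, with log2 fold changes of 0.02 at 36 h (95% interval -0.42 to 0.46, adjusted p = 0.982) and -0.10 at 0 h (-0.54 to 0.34, adjusted p = 0.723; 0.40 after scaling). Tead1, a DNA-binding partner of YAP, had 1.18, 1.82 and 2.87 TPM in knockdown libraries and 2.00, 4.94 and 3.89 TPM in control libraries at 36 h (-0.62, adjusted p = 0.332). At 0 h it had 2.75, 2.67 and 1.70 TPM in knockdown libraries and 2.30, 2.35 and 1.86 TPM in control libraries (0.08, adjusted p = 0.854).

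Of the other coactivator and TEAD genes, Wwtr1 and Tead4 fell at 0 h. Wwtr1, which encodes TAZ, had 21.4, 23.8 and 22.6 TPM in knockdown libraries and 52.4, 33.8 and 47.9 TPM in control libraries at 36 h. At 0 h it had 15.8, 9.74 and 24.5 TPM in knockdown libraries and 49.1, 51.3 and 43.6 TPM in control libraries. No knockdown library reached the level of any control library of its time. Wwtr1 fell at 0 h to 34.7% of control (log2 fold change -1.56 ± 0.29 SE, adjusted p = 0.00733; scaled -1.06, 0.00119). At 36 h it was 50.6% of control and passed after scaling but not in TPM (-0.93, adjusted p = 0.125; scaled -0.82, 0.0104). Tead4 had 2.45, 2.62 and 2.90 TPM in knockdown libraries and 5.79, 6.15 and 4.67 TPM in control libraries at 36 h (-0.83, adjusted p = 0.0762; scaled -0.74, 0.0450). At 0 h it had 3.41, 1.66 and 2.90 TPM in knockdown libraries and 5.85, 5.10 and 5.36 TPM in control libraries, and it fell (-0.85, adjusted p = 0.0260), a call lost after scaling (-0.46, 0.110). Neither Tead2 (-0.24 at 36 h, 0.20 at 0 h) nor Tead3 (-0.94 at 36 h, adjusted p = 0.107; -0.26 at 0 h in TPM and 0.12 after scaling) passed. Tead3 was still without overlap at 36 h, at 1.89, 1.66 and 2.25 TPM in knockdown libraries and 4.69, 3.51 and 5.89 TPM in control libraries. Of the 8 genes listed as TEAD factors and cofactors 6 were tested, of which 2 were lower at 0 h, against 14.6% of all genes. At 36 h 0 were called in limma, and 3 had an unadjusted p under 0.05, as did 2345 of the 14426 genes tested. The 0 h count was 1 without any one control 0 h library, and the 36 h count was 3 without knockdown 0 h library 2 and 1 without library 3. The number of all genes called moved in these fits too.

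**Figure D3:**
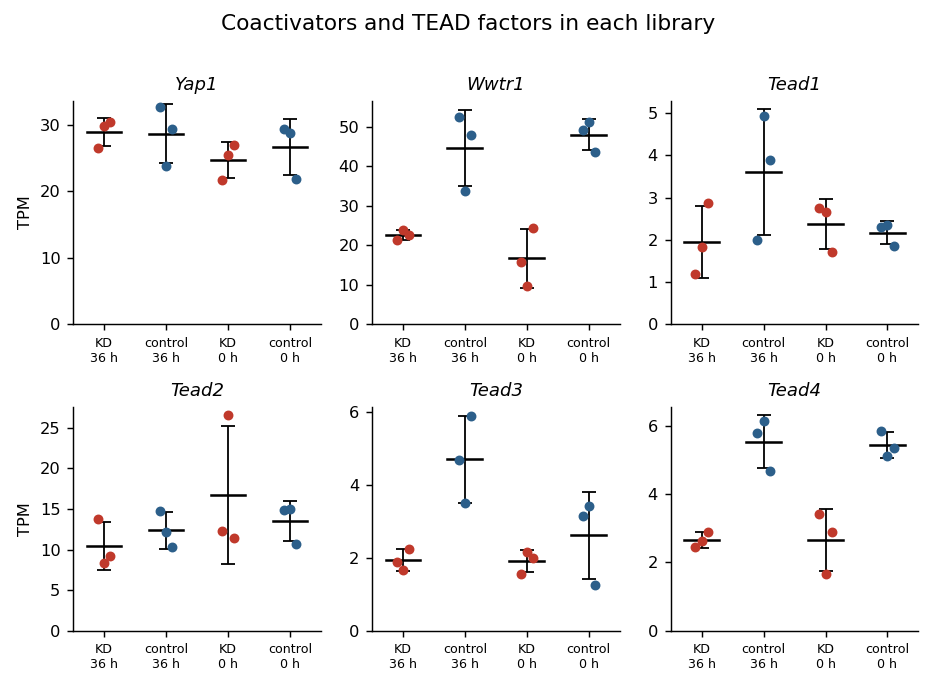
Level in TPM of the coactivator genes Yap1 and Wwtr1 and of the TEAD genes in every library, each panel from 0; points are libraries and bars the mean ± SD of 3 libraries. Yap1 overlaps between knockdown and control at both times, whereas Wwtr1 and Tead4 do not, and Tead3 overlaps at 0 h but not at 36 h.

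A ratio to Yap1 within a library does not depend on how libraries are scaled, but it depends on Yap1 itself. After scaling, Yap1 was at 50.3 in knockdown 0 h library 2, against 24.1 and 25.5 in knockdown 0 h libraries 1 and 3. A higher Yap1 lowers each ratio of its library. Asap1 in that library was above every control 0 h library after scaling, yet its ratio was 29.1%, against 50.6 to 65.1% in control 0 h libraries. Ccn1 was 19.9 ± 4.03% of Yap1 in knockdown and 66.0 ± 8.66% in control libraries at 36 h, and 20.1 ± 14.3% in knockdown and 39.3 ± 5.28% in control libraries at 0 h (SD, n = 3 each). Asap1 was 20.3 ± 2.01% of Yap1 in knockdown and 54.2 ± 8.24% in control libraries at 36 h, and 29.0 ± 4.53% in knockdown and 56.2 ± 7.74% in control libraries at 0 h. Ankrd1 was 5.74 ± 2.18% of Yap1 in knockdown and 2.63 ± 0.695% in control libraries at 36 h, and 9.25 ± 2.2% in knockdown and 3.01 ± 1.00% in control libraries at 0 h. The ratios of Ccn1, Ccn2, Axl and Asap1 were lower and that of Ankrd1 higher in every knockdown library than in any control library, at both times. That is 4 of 9 members lower and 1 higher, where 24.8% of genes were lower and 10.8% higher without overlap at 36 h, and 22.7% and 7.39% at 0 h. For Ankrd1 at 36 h the margin was narrow, with 3.49% in knockdown library 3 and 3.43% in control library 1, and its TPM values overlapped at that time.

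**Figure D4:**
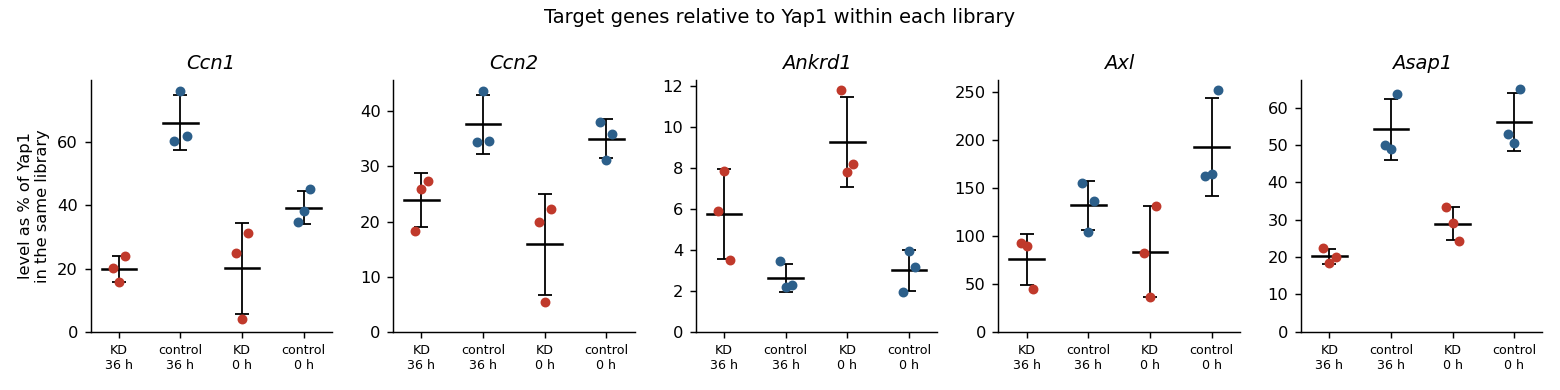
Level of Ccn1, Ccn2, Ankrd1, Axl and Asap1 as a percentage of Yap1 in the same library, on linear axes from 0; points are libraries and bars the mean ± SD of 3 libraries. In each panel the knockdown and control libraries of the same time are apart, with Ankrd1 higher and the others lower in the knockdown, though Ankrd1 at 36 h is apart only narrowly.

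Over time, 0 of the 10 members passed in limma in either genotype. An unadjusted p under 0.05 was reached by 0 members in control and 2 in knockdown, against 803 and 2363 of the 14426 genes tested. Of all genes, 0.360% were called in control and 1.12% in knockdown. In control cells Ccn1 alone was without overlap between times, at 19.7, 18.1 and 18.2 TPM at 36 h and 10.2, 11.0 and 9.81 TPM at 0 h (log2 fold change 0.80, adjusted p = 1), where 9.55% of genes were higher without overlap. With only the control groups fitted, Ccn1 passed (adjusted p = 0.0303). In knockdown cells Ajuba (1.26, adjusted p = 0.231) and Amotl2 (0.68, 0.306) were higher and Asap1 (-0.24, 0.449) lower at 36 h without overlap, against 15.0% and 3.91% of genes. In limma, the difference between the genotypes in the 36 h change was called for 0 members and 0 of all genes, with 0 members and 766 genes at an unadjusted p under 0.05. For Ccn1 that difference was -0.37 (95% interval -1.73 to 1.00).

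Among 15 further YAP targets, all tested, 5 fell and 0 rose at 0 h (14.6% and 3.10% of all genes): Nt5e, the ectonucleotidase CD73 (log2 fold change -2.23, adjusted p = 0.0146), the RNA-binding protein gene Rbms3 (-1.40, 0.00776), the insulin-like growth factor binding protein gene Igfbp3 (-1.40, 0.0151), the kinase gene Nuak2 (-1.13, 0.0166) and the growth factor gene Tgfb2 (-0.99, 0.0369). Of these, Tgfb2 did not pass after scaling at 0 h (-0.62, adjusted p = 0.119). Nt5e had 42.1, 11.2 and 70.8 TPM in knockdown libraries and 155, 144 and 172 TPM in control libraries. At 36 h 0 of the 15 were called in limma, and 7 had an unadjusted p under 0.05, as did 2345 of the 14426 genes tested. Of the 15, 11 were lower and 0 higher at 36 h without overlap in TPM, against 22.0% and 14.8% of all genes. At 0 h 6 were lower and 1 higher without overlap, against 30.7% and 7.24%. After scaling Tgfb2 was called lower at 36 h (-1.01, adjusted p = 0.0489). The 0 h count was 1 without control 0 h library 1 and 2 without library 3, and the 36 h count was 7 without knockdown 0 h library 2 and 1 without library 1. Such counts moved together with the number of all genes called, and are not set against a share. The median of the 15 was -0.60 at 36 h and -0.25 at 0 h in TPM, where all genes had -0.09 and -0.41. After scaling it was -0.50 at 36 h and 0.13 at 0 h, where all genes had 0.01 and 0.03. Igfbp3 rose over time in knockdown cells, where it had 648, 771 and 848 TPM at 36 h and 214, 89.3 and 254 TPM at 0 h (2.14, adjusted p = 0.00887). In control cells Igfbp3 had 1052, 893 and 1001 TPM at 36 h and 443, 432 and 471 TPM at 0 h, also without overlap, and passed there after scaling (1.13, adjusted p = 0.0116) but not in TPM (1.12, 0.300). The difference between these changes did not pass (adjusted p = 0.595 in TPM and 0.649 after scaling).

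Of 24 genes listed as Hippo core and upstream regulators 22 were tested, and 3 fell and 1 rose at 0 h, against 14.6% and 3.10% of all genes. The polarity scaffold gene Pals1 (log2 fold change -1.43, adjusted p = 0.00499), the FERM-domain gene Frmd6 (-1.33, 0.0247) and Stk4, which encodes the kinase MST1 (-1.05, 0.0289), fell, and Mob1b, a LATS-activating adaptor gene, rose (0.81, 0.0319). After scaling, 3 were higher, namely Mob1b, Map4k4 and Crb3, and 2 lower, namely Pals1 and Frmd6, against 8.73% and 10.2% of all genes. At 36 h 0 were called in limma, and 8 had an unadjusted p under 0.05, as did 2345 of the 14426 genes tested. Without overlap in TPM, 8 were lower and 3 higher at 36 h, against 22.0% and 14.8% of all genes. At 0 h 6 were lower and 1 higher without overlap, against 30.7% and 7.24%. After scaling Map4k4 (0.92, adjusted p = 0.0434) and Crb3 (0.66, 0.0204) were higher at 36 h. Leaving out 1 library gave 1 call at 0 h without any control 0 h library, 2 without knockdown 0 h library 1 and 10 without library 3. It gave 4 calls at 36 h without knockdown 0 h library 2 and 2 without library 3. Calls among all genes moved in these fits as well, so the shares above do not apply to them. Ptpn14 stands both here and among the further YAP targets.

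SRF and its actin-sensing cofactors, the MRTF proteins, share several target genes with YAP. Of 17 listed, 14 were tested, and 7 fell and 0 rose at 0 h (14.6% and 3.10% of all genes), led by tropomyosin gene Tpm1 (log2 fold change -1.46, adjusted p = 0.00604), the actin gene Actb (-1.21, 0.00974), the cofactor gene Mrtfb (-0.96, 0.0244) and Tpm2 (-1.14, 0.0269). After scaling 4 were lower at 0 h, namely Tpm1, Tpm2, Flna and Itga5, against 10.2% of all genes, while Actb (-0.69, adjusted p = 0.0603) and Mrtfb (-0.52, 0.0850) did not pass. At 36 h Mrtfa fell (-1.03, adjusted p = 0.0406), with 3.87, 5.21 and 4.23 TPM in knockdown libraries and 10.2, 9.29 and 10.6 TPM in control libraries, where 1.64% of all genes were lower. After scaling Mrtfa, Mrtfb, Flna and Tpm1 were lower and Tagln was higher (1.07, adjusted p = 0.0401) at 36 h. The 0 h count was 2 without control 0 h library 1 or 2, 3 without library 3 and 11 without knockdown 0 h library 3. At 36 h the call was kept in 3 of the 12 fits that left out 1 library, with 7 calls without knockdown 0 h library 2 and 2 without library 3. Calls among all genes moved in the fits that left out a library, so the shares above do not apply to these counts. Without overlap in TPM, 9 of the 14 were lower and 1 higher at 36 h, against 22.0% and 14.8% of all genes. At 0 h 9 were lower and 0 higher without overlap, against 30.7% and 7.24%. The median of the 14 was -0.55 at 36 h and -0.89 at 0 h in TPM, and -0.46 at each time after scaling.

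The genes most like 3 members in pattern were sought by the root mean square difference of centred log2(TPM + 1) over the 12 libraries. Those nearest to Ccn1 were Hnrnpd, Cav1 and Lacc1, each at 0.27, where the values of Ccn1 lay 0.90 from their own mean. Nearest to Ccn2 were Zdhhc9, Ska2 and Zdhhc1, each at 0.17 against 0.65 for Ccn2 itself. Nearest to Ankrd1 were Ptrhd1, 1110065P20Rik and Uqcc3, each at 0.19 against 0.43. Other members were not among these 9 genes.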

How the data were processed

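Stranded mRNA libraries of 12 HC11 samples were analysed, grouped by the sample titles. The authors deposited gene-level TPM for 57180 genes with gene lengths. Tools listed in the submitters' processing notes are HISAT2 2.2.1, cutadapt 1.9.1, FastQC, DESeq2 and HTSeq, with build GRCm39, and which of them made the TPM is not given in the sources used here. Depth is unknown, so no counting error is given. The authors' 5 group columns were not used. The 14426 genes reaching 1 TPM in 3 or more libraries were fitted as log2(TPM + 1), which understates changes of low genes, with 1 mean per group over all 12 libraries in limma 3.58.1 (R 4.3.3; eBayes with trend). In 5 comparisons, two-sided p-values were adjusted by Benjamini-Hochberg over all tested genes, and genes under 0.05 were called. The script was tested on simulated data. The members and gene lists were chosen with earlier results of these data known. Named genes were all members, Snai1, Wwtr1 and the other TEAD genes, up to 4 called genes per list and comparison by adjusted p, and the 3 nearest genes in pattern. Tgfb2 at 0 h, the marker genes Col1a1 and Cd68, and genes named for a call or its loss after scaling lie outside this rule and were chosen after their values were seen. Settings varied were the pseudocount (0.1), the filter (none, or 5 TPM), scaling by median of ratios, mitochondrial genes (removed), a replicate block, the groups fitted (those of a comparison alone) and each library left out. Promoter and window sequences are from RefSeq (GRCm38.p6).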

Additional observations from a re-analysis of the deposited data

How the results depend on the processing

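Depth is unknown and 3 libraries a group leave wide intervals. Limma called 2550 genes and 4 members at 0 h, 365 and 1 at 36 h, 52 and 0 in control over time, 162 and 0 in knockdown over time, and 0 genes for the difference of those changes. The cause of the moves below was not tested. With no filter, 1258 genes and 1 member were called at 0 h, 192 genes at 36 h and 1 gene for the difference. With median-of-ratios scaling, 854 genes and 2 members were called at 36 h, 88 genes over time in control and 1 for the difference. With only the groups compared, 89 genes and 0 members were called at 0 h, 2377 and 2 at 36 h, 318 and 1 over time in control and 19 genes over time in knockdown.

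The replicate numbers gave no clear sign of pairing. Deviations of log2(TPM + 1) from the group means correlated at -0.287 to 0.132 between same-numbered libraries of different groups, over 15 pairs. By these deviations, 3 of 12 libraries correlated best with a library of their own number. With a replicate block, 1011 genes and 1 member were called at 0 h, 5 and 0 at 36 h, 6 genes over time in control, 40 in knockdown and 1 for the difference. With the block and scaling these were 1399 and 1, 33 and 0, 5 genes, and 51 genes. The block leaves control 36 h library 4 without weight, since no other library has its number.

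Leaving out 1 library in turn gave 755 to 5869 genes and 0 to 6 members at 0 h, 24 to 2699 genes and 0 to 2 members at 36 h, 18 to 401 genes over time in control, 46 to 1572 genes and 0 to 2 members over time in knockdown, and 0 to 10 genes for the difference. For the next 2 fits the number of all genes called at 0 h is not given, so their member counts at 0 h stand without a share. Without knockdown 0 h library 2 and with scaling, 2 members were called at 0 h, 2765 genes and 2 members at 36 h, 394 genes and 1 member over time in control, 406 genes in knockdown and 5 for the difference. Chosen after seeing the data, leaving out that library with control 36 h library 4 gave 2 members at 0 h, 1448 genes and 2 members at 36 h, 160 and 258 genes over time in control and in knockdown, and 8 for the difference. Leaving out knockdown 0 h libraries 2 and 3, likewise chosen then, gave 3018 genes and 2 members at 36 h, 475 genes and 1 member over time in control and 281 genes in knockdown.

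No member changed sign in a comparison in which it was called, while uncalled ones near 0 did. At 0 h the log2 fold changes after scaling, with or without the block, were 0.33 for Amotl2, 0.19 for Lats2 and 0.40 for Yap1, and without knockdown 0 h library 2 and with scaling 0.40, 0.0361 and 0.0729. Without that library and control 36 h library 4 Amotl2 was at 0.22, and without knockdown 0 h libraries 2 and 3 at 0.05. Leaving out 1 or 2 libraries gave -0.34 to 0.22 for Amotl2, -0.88 to 0.0632 for Lats2 and -0.00651 to 0.25 for Tead1. At 36 h Amotl2 and Ajuba were at 0.0921 and 0.0245 after scaling, 0.18 and 0.16 with the block, 0.19 and 0.16 with both, and 0.0934 and 0.0251 without knockdown 0 h library 2 and with scaling, and Amotl2 was at 0.12 without that library and control 36 h library 4. Leaving out 1 or 2 libraries gave -0.26 to 0.13 for Amotl2, -0.31 to 0.11 for Ajuba, -0.24 to 0.28 for Lats2 and -0.10 to 0.12 for Yap1. The difference of the 36 h change of Ccn1 ranged from -1.03 to 0.0985 on leaving out 1 or 2 libraries. Of 623 alternative values for the time and difference results not given singly, 31 changed sign and 1 passed.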
